A study of Arabidopsis thaliana with 16 samples.

Results

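The 48 genes described here are nuclear genes for photosynthesis, read in RNA from Arabidopsis thaliana pollen tubes, which are not green. They were taken as a list of locus identifiers and not by a cut on their values, though earlier results of these data were known. All 48 are among the 33323 genes of the deposited tables. They comprise 4 LHCA and 13 LHCB genes for the light-harvesting proteins of the photosystems, 4 RBCS genes with RCA for Rubisco, 12 subunits of photosystem I, 8 of photosystem II, 3 electron carriers and 3 Calvin-Benson enzymes. Of these, 19 lie on chromosome 1, 8 on chromosome 2, 8 on chromosome 3, 6 on chromosome 4 and 7 on chromosome 5. In both primings, the largest member sum was that of 1 paps1-1 RNA sample (replicate 3) and the next that of 1 WT RNA sample (replicate 4), and no member passed the threshold between the genotypes.

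The series held 8 RNA samples of semi-in vivo pollen tubes, which emerge from a cut pistil: 4 from paps1-1 plants and 4 from wild type (WT), all of the Col-0 ecotype. Each RNA was divided into 1 library primed with oligo(dT), which anneals to poly(A) tails, and 1 primed with random hexamers, which gives 16 libraries in 4 groups of 4, all after depletion of ribosomal RNA. PAPS1 encodes a nuclear poly(A) polymerase, and paps1-1 is a point mutation that lowers its function, so the transcript level of PAPS1 does not check the labels. The title of the series gives the purpose as an estimate of poly(A)-tail length. Since no label tells whether replicates were separate cultures, p-values reflect the spread among these RNA samples, which may be technical.

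As background, leaf cells express these genes at very high levels under the control of light and plastid signals, and their proteins are imported into chloroplasts. Mature pollen and pollen tubes carry plastids without a photosynthetic apparatus, while the outer tissues of an Arabidopsis pistil are green. In bulk samples, fewer cells of a type and less RNA per cell cannot be told apart.

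Counts assigned to genes ranged from 70006 in WT oligo(dT) replicate 3 to 5294715 in paps1-1 random-hexamer replicate 1. The level that a count of 0 allows (3 counts) accordingly ranged between 0.567 and 42.9 CPM (counts scaled to the total of gene counts in each library), and such limits and intervals include only counting error, as reads had no molecular identifiers. PAPS1 stood between 47.3 and 308 CPM in paps1-1 and between 0 and 284 CPM in WT with oligo(dT). With random hexamers its range was 72.9 to 217 CPM in paps1-1 and 102 to 216 CPM in WT. Of 12 pollen-tube markers, all 12 were detected in 14 libraries, 10 in paps1-1 oligo(dT) replicate 3 and 6 in WT oligo(dT) replicate 3.

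The members together took 0.117%, 0.322%, 2.50% and 0.128% of gene counts in paps1-1 oligo(dT) replicates 1 to 4, against 0.0527%, 0.157%, 0.0686% and 0.669% in WT oligo(dT) replicates. With random hexamers they took 0.0543%, 0.158%, 1.17% and 0.0846% in paps1-1, against 0.0507%, 0.0802%, 0.171% and 0.432% in WT. Replicate 3 stood above the other paps1-1 samples and replicate 4 above the other WT samples in both primings, and the genotypes overlapped. The paps1-1 mean was 0.766% ± 1.16 and the WT mean 0.237% ± 0.292 with oligo(dT) (SD, n = 4 each). With random hexamers the means were 0.365% ± 0.535 in paps1-1 and 0.183% ± 0.173 in WT (SD, n = 4 each). The paps1-1 SD exceeded the difference between the genotype means in both primings, and no p is given for a sum over chosen genes. Without paps1-1 replicate 3 and WT replicate 4, which were picked out because their member sums were high, the paps1-1 mean was 0.189% and the WT mean 0.0929% with oligo(dT). The same means with random hexamers were 0.0988% in paps1-1 and 0.101% in WT. The 95% Wilson interval of the share ran over 2.46% to 2.54% in paps1-1 oligo(dT) replicate 3, with 17943 member counts, and over 0.0517% to 0.0909% in WT oligo(dT) replicate 3, with 48.

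**Figure D1:**
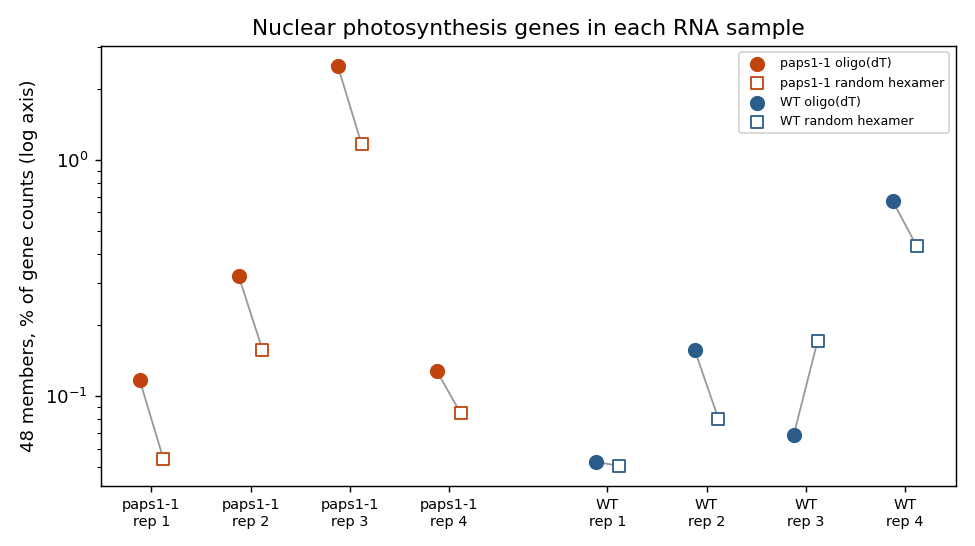
Share of gene counts taken by the 48 nuclear photosynthesis genes (y axis, percent, log axis) in each of the 8 RNA samples (x axis), with filled circles for the oligo(dT) and open squares for the random-hexamer library of the same RNA, joined by a line. In paps1-1 replicate 3 the share was 2.50% with oligo(dT) and 1.17% with random hexamers, the highest of each priming.

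The order of the RNA samples by member share was the same at its top in both primings, with paps1-1 replicate 3 first and WT replicate 4 second, and WT replicate 1 was last in both. WT replicate 3 ranked 7 with oligo(dT) and 3 with random hexamers, and it had the fewest gene counts in each priming. The oligo(dT) share exceeded the random-hexamer share of the same RNA in 7 of 8 pairs. Its ratio to the random-hexamer share was 2.16, 2.05, 2.14 and 1.51 in paps1-1 replicates 1 to 4 (mean 1.96 ± 0.309, SD, n = 4) and 1.04, 1.96, 0.401 and 1.55 in WT (mean 1.24 ± 0.674, SD, n = 4). These are ratios of shares within a library, so they also move with whatever else each priming captures.

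All 48 members gave reads in some library, while detection fell short in others. At least 1 count was found for 35, 43, 41 and 11 of 48 members in paps1-1 oligo(dT) replicates 1 to 4, against 21, 24, 3 and 38 in WT. Random-hexamer libraries held counts for 46, 43, 48 and 44 members in paps1-1, against 45, 40, 24 and 43 in WT. Detection in all 4 libraries of a group applied to 9 members in paps1-1 and 1 in WT with oligo(dT), and to 42 in paps1-1 and 24 in WT with random hexamers. LHB1B2 gave 44 of the 48 member counts of WT oligo(dT) replicate 3, where only 3 members were found. Of the members seen only with random hexamers, 9, 4, 7 and 28 in paps1-1 replicates 1 to 4 and 23, 17, 9 and 8 in WT had a random-hexamer level above the level that a count of 0 allows in the oligo(dT) library of that RNA, 105 of 129 in all. Across the 48 members, the levels in both libraries of the same RNA had Spearman correlations between 0.17 (paps1-1 replicate 4) and 0.65 (paps1-1 replicate 2), which describe points that share an RNA and gene lengths.

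**Figure D2:**
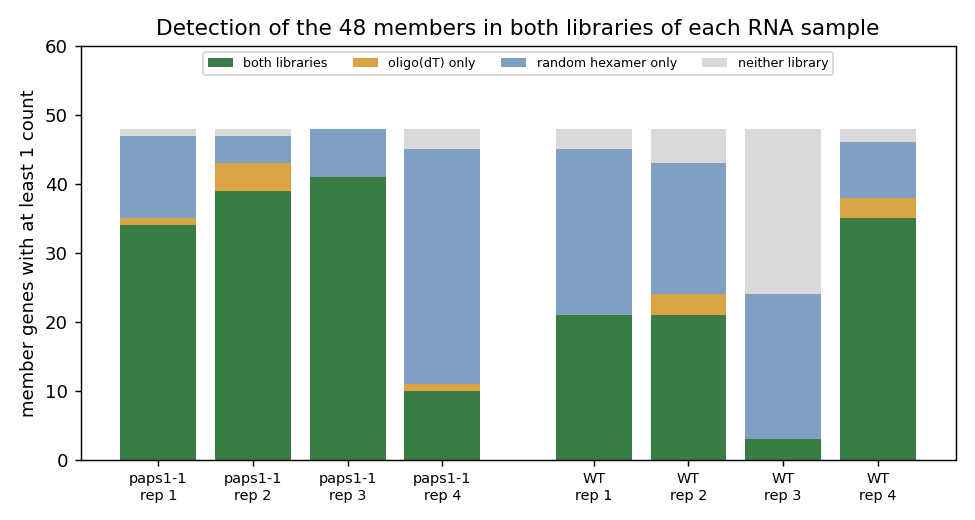
Number of the 48 member genes (y axis) with at least 1 count in both libraries, in the oligo(dT) library only, in the random-hexamer library only or in neither, for each RNA sample (x axis). Both libraries held 41 members in paps1-1 replicate 3 and 3 in WT replicate 3.

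The high sums of paps1-1 replicate 3 and WT replicate 4 were spread over the list rather than carried by 1 gene. With random hexamers, all 48 members were higher in paps1-1 replicate 3 than in the other 3 paps1-1 libraries, and 38 were higher in WT replicate 4 than in the other 3 WT libraries. Among genes with at least 10 counts in a library of the group, 34.0% were highest in that paps1-1 library and 29.5% in that WT library. With oligo(dT), 38 members were highest in paps1-1 replicate 3 within its genotype (20.1% of genes) and 33 in WT replicate 4 (40.3% of genes). The member with the most counts was LHCA1 with 7.27% of member counts in paps1-1 oligo(dT) replicate 3, and RBCS1A with 8.22% in WT oligo(dT) replicate 4. In the random-hexamer libraries of the same RNAs it was CAB1, with 8.88% in paps1-1 and 9.81% in WT. Since these libraries were picked for their sums, these counts are a description and not a test. No member had all 4 paps1-1 libraries above or below all 4 WT libraries in either priming. Over genes with at least 10 counts in a library, all 4 paps1-1 libraries were above WT for 1.24% and below for 0.226% with oligo(dT), and above for 4.53% and below for 0.958% with random hexamers.

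**Figure D3:**
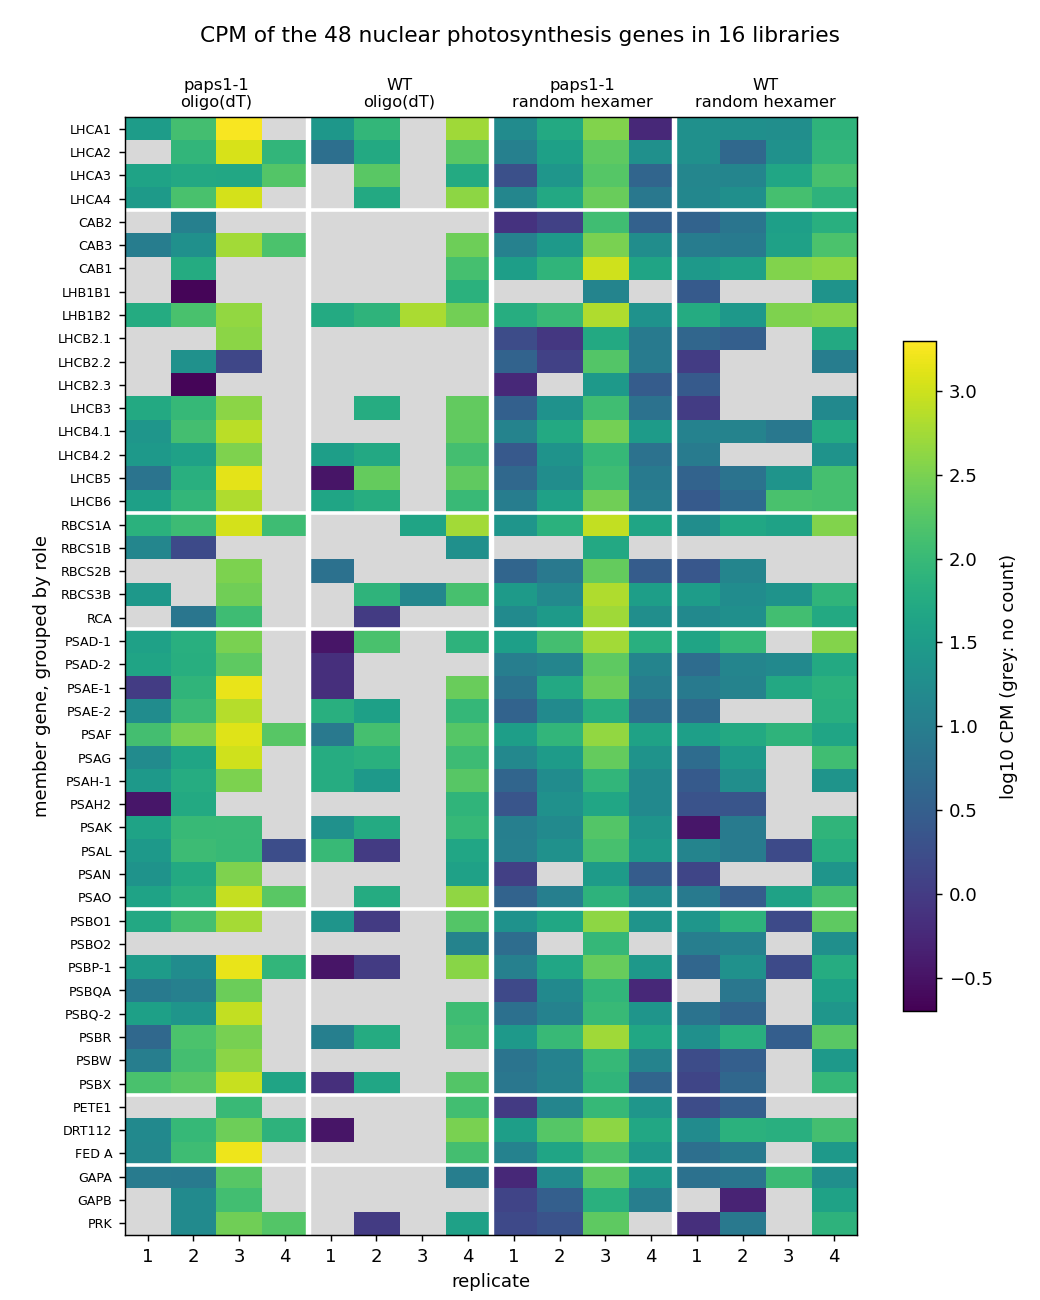
Level of each member (rows, grouped by role) in each of the 16 libraries (columns, replicates 1 to 4 of each group), as log10 CPM, with grey for no count. The column of paps1-1 random-hexamer replicate 3 has a count for all 48 members, and that of WT oligo(dT) replicate 3 for 3.

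Between the genotypes, none of the 30 members tested with oligo(dT) and none of the 38 tested with random hexamers passed the edgeR threshold (adjusted p below 0.05), and every adjusted p among members was 1.00. Over all genes, 0.0196% of 5101 passed with oligo(dT) and 0.0715% of 12595 with random hexamers. At an unadjusted p below 0.05 there was 1 member in each priming, against 1.69% and 2.33% of all genes, and the DESeq2 Wald test also called no member. The members' median log2 fold change of paps1-1 over WT was 1.15 with oligo(dT), beside 0.43 over all genes tested, and 0.87 with random hexamers, beside 0.38. Of the tested members, 29 of 30 were positive with oligo(dT), beside 63.5% of all genes tested, and 31 of 38 with random hexamers, beside 65.7%. The members that were tested are those with enough counts in 4 libraries, so neither count stands for the whole list. Both medians turned negative without paps1-1 replicate 3. The median was then -0.05 with oligo(dT) (13 of 30 positive, beside 65.9% of all genes tested). With random hexamers it was -0.60 (13 of 40 positive, beside 69.9%). Without WT replicate 4 the median was 3.32 with oligo(dT) (31 of 32 positive, beside 67.9% of all genes tested). With random hexamers it was then 1.81 (42 of 42 positive, beside 66.2%). In that oligo(dT) fit 6 of the 32 members had no WT count left, and with these at their lower bounds the median was 3.10. Without both of these RNA samples, an alternative chosen after the data were seen, the median was 1.14 with oligo(dT) (20 of 25 positive, beside 68.4%). With random hexamers it was 0.41 (24 of 39 positive, beside 72.0%). The size and sign of the list's median between genotypes thus depended on which of the RNA samples of highest sum were kept.

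**Figure D4:**
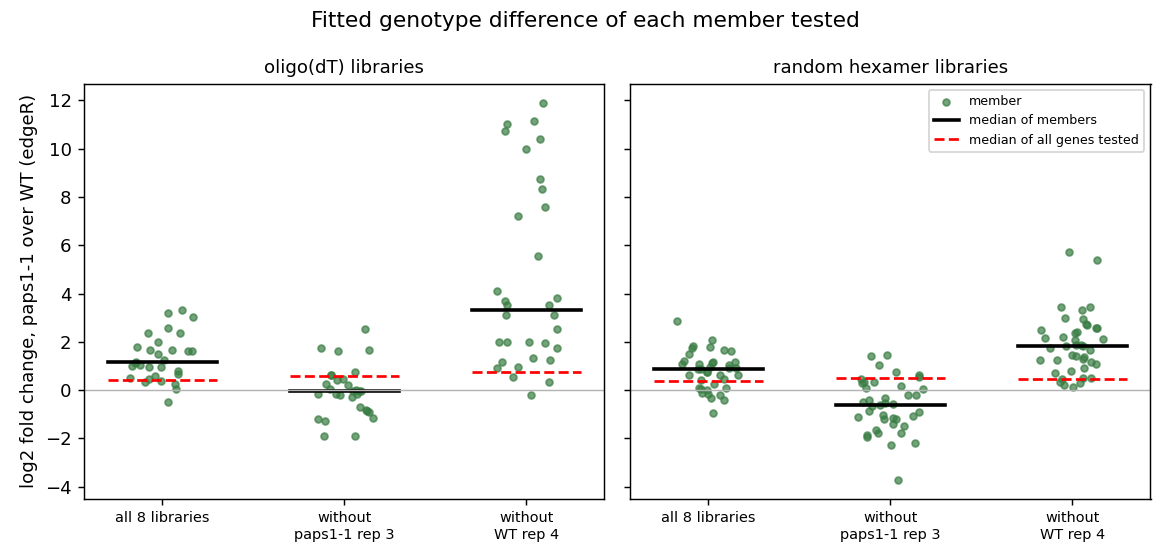
Fitted log2 fold change of paps1-1 over WT (y axis) of each member tested (points) with all 8 libraries of a priming, without paps1-1 replicate 3 and without WT replicate 4 (x axis), for oligo(dT) at left and random hexamers at right. Black lines are the members' medians and red dashed lines the medians of all genes tested, and the black line falls to -0.60 with random hexamers without paps1-1 replicate 3.

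The light-harvesting proteins of photosystem I, encoded by LHCA genes, bind chlorophyll and pass excitation to that photosystem. LHCA1 (AT3G54890) stood at 32.8, 127, 1816 and 0 CPM in paps1-1 oligo(dT) replicates 1 to 4, against 26.5, 88.03, 0 and 542 CPM in WT oligo(dT) replicates 1 to 4. Random-hexamer values of LHCA1 were 16.8, 53.4, 354 and 0.577 CPM in paps1-1, against 20.3, 19.7, 19.1 and 79.04 CPM in WT. Replicate 3 was the high sample of paps1-1 and replicate 4 that of WT in both primings, 1 oligo(dT) library of each genotype had no count, and the genotypes overlapped. LHCA4 (AT3G47470) had 29.7, 141, 1083 and 0 CPM in the paps1-1 oligo(dT) libraries, against 0, 53.02, 0 and 418 CPM in WT. Random-hexamer values of LHCA4 were 13.6, 51.01, 248 and 8.07 CPM in paps1-1, against 14.1, 19.4, 134 and 78.1 CPM in WT. The top WT library with random hexamers was replicate 3 here, with replicate 4 next to it. The log2 fold change of paps1-1 over WT was 1.17 ± 1.40 (SE) for LHCA1 and 1.05 ± 1.53 for LHCA4 with oligo(dT), and 1.20 ± 0.99 and 0.10 ± 0.88 with random hexamers. Together the 4 LHCA genes held 16.4% of member counts in paps1-1 oligo(dT) replicate 3 and 17.96% in WT oligo(dT) replicate 4, and 8.39% and 8.72% in the random-hexamer libraries of those RNAs. Their share of member counts was higher with oligo(dT) than with random hexamers in 6 of 8 RNA samples, including 4 of 4 of paps1-1.

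The LHCB genes encode the light-harvesting proteins of photosystem II. CAB1, CAB2, CAB3, LHB1B1 and LHB1B2 encode its major antenna protein from near-identical copies, so reads may have been split or lost among them, and their values are uncertain. CAB1 (AT1G29930) stood at 0, 56.9, 0 and 0 CPM in the paps1-1 oligo(dT) libraries, against 0, 0, 0 and 132 CPM in WT. Random-hexamer values of CAB1 were 34.6, 82.8, 1035 and 42.7 CPM in paps1-1, against 28.96, 39.4, 352 and 423 CPM in WT. Oligo(dT) found CAB1 in 1 library of each genotype only, and not in paps1-1 replicate 3, where its random-hexamer level was highest. CAB2 (AT1G29920) had 0, 10.9, 0 and 0 CPM in the paps1-1 oligo(dT) libraries and no count in the 4 WT ones. Random-hexamer values of CAB2 were 0.755, 1.200, 117 and 3.46 CPM in paps1-1, against 3.79, 7.07, 36.6 and 66.7 CPM in WT, with replicate 3 high in paps1-1 and replicates 3 and 4 high in WT. CAB3 (AT1G29910) had 10.01, 20.3, 553 and 148 CPM in the paps1-1 oligo(dT) libraries, against 0, 0, 0 and 260.4 CPM in WT. Its random-hexamer values were 11.3, 28.5, 312 and 18.5 CPM in paps1-1, against 9.65, 8.84, 38.2 and 149 CPM in WT, overlapping with the same top samples as the sums.

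LHB1B2 (AT2G34420) had counts in 7 of the 8 oligo(dT) libraries. It stood at 57.6, 141, 448 and 0 CPM in the paps1-1 oligo(dT) libraries, against 56.01, 80.03, 629 and 282 CPM in WT. Random-hexamer values of LHB1B2 were 61, 101, 657 and 21.9 CPM in paps1-1, against 56.9, 27.3, 337 and 372 CPM in WT. The groups overlapped, and its highest oligo(dT) value was that of WT replicate 3, where it rests on 44 counts. LHCB4.1 (AT5G01530), a minor antenna protein, had 25.5, 126, 783 and 0 CPM in the paps1-1 oligo(dT) libraries, against 0, 0, 0 and 214 CPM in WT. Random-hexamer values of LHCB4.1 were 12.3, 53.1, 288 and 31.1 CPM in paps1-1, against 11.7, 12.4, 7.96 and 56.3 CPM in WT. WT replicate 4 was the single WT library with oligo(dT) counts, and the genotypes overlapped. The log2 fold change of LHCB4.1 in paps1-1 over WT was 1.77 ± 0.93 (SE) with random hexamers, the second smallest p among members (unadjusted p = 0.0665, edgeR adjusted p = 1.00), and 1.78 ± 1.79 with oligo(dT). Without paps1-1 replicate 3 these were 0.61 with random hexamers and 0.24 with oligo(dT). Of the 13 LHCB genes, 6 of 7 tested were positive with oligo(dT) (median 1.13) and 6 of 10 with random hexamers (median 0.15). Without paps1-1 replicate 3 it was 2 of 7 with oligo(dT) and 4 of 11 with random hexamers.

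Rubisco, the enzyme that fixes CO2, has its small subunit encoded by the RBCS genes in the nucleus, and RCA encodes the activase that keeps it active. The RBCS genes are near-identical copies too, RBCS1B, RBCS2B and RBCS3B most of all, and their values are likewise uncertain. RBCS1A (AT1G67090) stood at 71.1, 109.9, 1108.5 and 114 CPM in the paps1-1 oligo(dT) libraries, against 0, 0, 42.9 and 550.2 CPM in WT. Random-hexamer values of RBCS1A were 24.4, 71.7, 844 and 45.6 CPM in paps1-1, against 18.3, 48.7, 39.8 and 349 CPM in WT. All 4 paps1-1 oligo(dT) libraries held it and 2 of the WT ones did, and paps1-1 replicate 3 and WT replicate 4 were again the high samples. RBCS3B (AT5G38410) had 27.3, 0, 269 and 0 CPM in the paps1-1 oligo(dT) libraries, against 0, 80.03, 14.3 and 136 CPM in WT. Random-hexamer values of RBCS3B were 29.7, 15, 662 and 35.2 CPM in paps1-1, against 32.8, 17.4, 22.3 and 81.5 CPM in WT. With random hexamers it had the smallest p between genotypes among members, at a log2 fold change of 1.82 ± 0.88 (SE, unadjusted p = 0.0488, edgeR adjusted p = 1.00), and this was -0.32 without paps1-1 replicate 3. RBCS2B (AT5G38420) had 0, 0, 326 and 0 CPM in the paps1-1 oligo(dT) libraries, against 6.11, 0, 0 and 0 CPM in WT, and 3.97, 8.402, 224 and 2.88 CPM in the paps1-1 random-hexamer libraries, against 2.41, 13.1, 0 and 0 CPM in WT. It was thus found in 1 oligo(dT) library of each genotype. RBCS1B (AT5G38430) gave no count in any WT random-hexamer library and 0, 0, 52.03 and 0 CPM in the paps1-1 ones, a mean at least 6.47-fold higher in paps1-1 when set against 3 counts in each WT library. That bound rests on the 37 counts of paps1-1 replicate 3 alone. Oligo(dT) values of RBCS1B were 13.8, 1.56, 0 and 0 CPM in paps1-1, against 0, 0, 0 and 20.3 CPM in WT.

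RCA (AT2G39730) stood at 0, 7.36, 116 and 0 CPM in the paps1-1 oligo(dT) libraries, against 0, 1.00, 0 and 0 CPM in WT. Random-hexamer values of RCA were 16.4, 30.6, 530.2 and 19.03 CPM in paps1-1, against 15.9, 19.9, 124 and 54.3 CPM in WT. Random hexamers found RCA in all 8 RNA samples and oligo(dT) in 3 of them, with 1 count in WT. Together the RBCS genes and RCA held 19.8% of member counts in paps1-1 random-hexamer replicate 3, and 7.28% in the oligo(dT) library of the same RNA. Their share of member counts was lower with oligo(dT) in 8 of 8 RNA samples, a direction no other role group had in all pairs. In WT replicate 3 the oligo(dT) share rests on 4 counts. Their share of all gene counts was higher with oligo(dT) in paps1-1 replicates 1 and 4 and WT replicate 4, and lower in the others. These are shares of counts without regard to transcript length. The genes differed, as RBCS1A had a higher level with oligo(dT) in 6 of 8 RNA samples, RBCS1B in 3, RBCS2B in 2, RBCS3B in 2 and RCA in 0.

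The subunits of photosystem I encoded in the nucleus dock ferredoxin and plastocyanin and hold the antenna. PSAF (AT1G31330), which docks plastocyanin, stood at 129, 317, 1291 and 185 CPM in the paps1-1 oligo(dT) libraries, against 8.15, 130.04, 0 and 178 CPM in WT. Random-hexamer values of PSAF were 35.3, 87.02, 446 and 39.8 CPM in paps1-1, against 35.5, 53.3, 81.2 and 44.5 CPM in WT. Oligo(dT) counts were present in all libraries but WT replicate 3, the paps1-1 replicates 2, 3 and 4 exceeded the highest WT library, and replicate 1 of paps1-1 lay just under WT replicate 2. Its log2 fold change was 2.35 ± 1.48 (SE) with oligo(dT), the second smallest p among members there (unadjusted p = 0.111, edgeR adjusted p = 1.00), and 1.09 ± 0.73 with random hexamers. Without paps1-1 replicate 3 these were 1.64 with oligo(dT) and 0.086 with random hexamers. PSAD-1 (AT4G02770), which docks ferredoxin on the stromal side, had 38.3, 66.9, 311 and 0 CPM in the paps1-1 oligo(dT) libraries, against 0.339, 140.05, 0 and 77.8 CPM in WT. Random-hexamer values of PSAD-1 were 36.6, 126, 564 and 67.5 CPM in paps1-1, against 43.4, 93.4, 0 and 363 CPM in WT, with overlap in both primings. Of the 12 photosystem I genes, 9 of 9 tested were positive with oligo(dT) (median 0.97) and 9 of 10 with random hexamers (median 0.89). Without paps1-1 replicate 3 it was 4 of 9 with oligo(dT) and 3 of 10 with random hexamers.

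Photosystem II genes in the nucleus encode the extrinsic proteins that stabilise the water-splitting manganese cluster and small membrane subunits. PSBO1 (AT5G66570), the main form of the manganese-stabilising protein, stood at 52.5, 129.8, 581 and 0 CPM in the paps1-1 oligo(dT) libraries, against 24.4, 1.00, 0 and 172 CPM in WT. Random-hexamer values of PSBO1 were 21.9, 47.7, 425 and 23.1 CPM in paps1-1, against 25.2, 76.01, 1.59 and 199.6 CPM in WT. The second gene for this protein differed in detection, since oligo(dT) found it in 1 of 8 libraries. PSBO2 (AT3G50820) had no count in the 4 paps1-1 oligo(dT) libraries, against 0, 0, 0 and 12.4 CPM in WT, and 5.29, 0, 91.4 and 0 CPM in the paps1-1 random-hexamer libraries, against 10.3, 11.9, 0 and 19.8 CPM in WT. PSBR (AT1G79040) had 4.49, 146, 306 and 0 CPM in the paps1-1 oligo(dT) libraries, against 10.5, 58.02, 0 and 131 CPM in WT. Random-hexamer values of PSBR were 28.1, 98.7, 537 and 47.9 CPM in paps1-1, against 20, 66.9, 3.18 and 190.2 CPM in WT, with paps1-1 replicate 3 and WT replicate 4 highest in both primings and the genotypes overlapping.

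PSBX (AT2G06520), a small membrane subunit, stood at 143, 189, 918 and 43.97 CPM in the paps1-1 oligo(dT) libraries, against 0.679, 46.02, 0 and 167 CPM in WT. Random-hexamer values of PSBX were 7.55, 12.3, 82.97 and 4.04 CPM in paps1-1, against 1.38, 4.29, 0 and 93.4 CPM in WT. All 4 paps1-1 RNA samples were higher with oligo(dT), while in WT 2 were higher, 1 was lower and 1 had no count in either library. For PSBX, paps1-1 over WT gave a log2 fold change of 2.38 ± 1.63 (SE) with oligo(dT), the third smallest p among members (unadjusted p = 0.145, edgeR adjusted p = 1.00), and -0.02 ± 1.36 with random hexamers. Without paps1-1 replicate 3 these were 1.62 with oligo(dT) and -1.39 with random hexamers. PSBW (AT2G30570), another small subunit, had 10.4, 127, 402 and 0 CPM in the paps1-1 oligo(dT) libraries and no count in the 4 WT ones, a mean at least 10.7-fold higher in paps1-1 against 3 counts in each WT library (at least 3.65-fold without paps1-1 replicate 3). Random-hexamer values of PSBW were 6.799, 12, 94.2 and 12.1 CPM in paps1-1, against 1.72, 3.28, 0 and 27.7 CPM in WT. Its oligo(dT) level was high in paps1-1 replicates 2 and 3, low in replicate 1 and without a count in replicate 4, as in WT.

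Plastocyanin and ferredoxin carry electrons to and from photosystem I. DRT112 (AT1G20340), one of the plastocyanin genes, stood at 15.5, 95.5, 266 and 77.4 CPM in the paps1-1 oligo(dT) libraries, against 0.339, 0, 0 and 312 CPM in WT. Random-hexamer values of DRT112 were 34.8, 176, 418 and 50.2 CPM in paps1-1, against 16.9, 70.7, 66.8 and 129 CPM in WT. With oligo(dT) the highest library was WT replicate 4, and 2 of the other WT libraries held no count. FED A (AT1G60950), the main leaf ferredoxin, had 14.8, 112, 1590.3 and 0 CPM in the paps1-1 oligo(dT) libraries, against 0, 0, 0 and 125 CPM in WT. Random-hexamer values of FED A were 11.9, 45.3, 142 and 27.7 CPM in paps1-1, against 5.86, 8.59, 0 and 27.7 CPM in WT. Replicate 3 of paps1-1 and replicate 4 of WT were its highest libraries in both primings, and the genotypes overlapped. It had the smallest p between genotypes among members with oligo(dT), at a log2 fold change of 3.33 ± 1.68 (SE, unadjusted p = 0.0466, edgeR adjusted p = 1.00), and 2.09 ± 1.16 with random hexamers. The oligo(dT) value was 0.73 without paps1-1 replicate 3, and without WT replicate 4 no WT count remained.

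GAPA, a subunit of the plastid glyceraldehyde-3-phosphate dehydrogenase, and PRK, phosphoribulokinase, are enzymes of the Calvin-Benson cycle. GAPA (AT3G26650) stood at 9.32, 8.47, 184 and 0 CPM in the paps1-1 oligo(dT) libraries, against 0, 0, 0 and 10.1 CPM in WT. Random-hexamer values of GAPA were 0.567, 16.2, 207 and 27.1 CPM in paps1-1, against 6.21, 7.07, 105 and 19.3 CPM in WT. The high WT random-hexamer sample was replicate 3, not replicate 4, and oligo(dT) did not find GAPA in it. PRK (AT1G32060) had 0, 16.5, 274 and 172 CPM in the paps1-1 oligo(dT) libraries, against 0, 1.00, 0 and 38.3 CPM in WT. Random-hexamer values of PRK were 1.51, 2.101, 199.7 and 0 CPM in paps1-1, against 0.69, 8.33, 0 and 77.1 CPM in WT. In paps1-1 replicate 4 it had a level with oligo(dT) and no count with random hexamers.

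The other 25 members followed the same order of RNA samples for the most part. They are LHCA2 and LHCA3, 8 LHCB genes, 10 photosystem I subunits, PSBP-1, PSBQA and PSBQ-2 of photosystem II, the plastocyanin gene PETE1 and GAPB. The highest oligo(dT) library was paps1-1 replicate 3 for 18 of them and WT replicate 4 for 3, and the highest random-hexamer library paps1-1 replicate 3 for 20 and WT replicate 4 for 5. The level in a member's highest library ranged between 0.223 CPM (LHCB2.3) and 1469 CPM (PSAE-1) with oligo(dT), and between 22.7 CPM (LHB1B1) and 274 CPM (LHCB6) with random hexamers. Their log2 fold changes of paps1-1 over WT lay between 0.27 and 3.04 for the 15 tested with oligo(dT) and between -0.96 and 2.85 for the 18 tested with random hexamers.

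Between primings of the same RNA, no member passed the edgeR threshold in either genotype. In paps1-1, 0.282% of 14190 genes passed and 0 of 45 members, and in WT 1.15% of genes and 0 of 45 members. The members' median log2 fold change of oligo(dT) over random hexamers was -0.11 in paps1-1, beside -2.53 over all genes, and -2.89 in WT, beside -3.92. With 2 of the members without a WT oligo(dT) count set at their bounds, the WT median was -2.59. These medians weigh each member alike and do not describe the summed share, which was higher with oligo(dT) in most RNA samples. The sign of the median in paps1-1 changed under several alternatives. In WT the median stayed negative in all that were run but varied in size. It ran from -4.18 without both RNA samples of highest sum to -0.32 (21 of 45 positive) without the RNA sample as a block. Leaving out single RNA samples gave WT medians between -3.57 (without WT replicate 4) and -1.22 (without WT replicate 1). At an unadjusted p below 0.05 there were 2 members in paps1-1 (11.1% of genes) and 10 in WT (20.2% of genes). The DESeq2 Wald test called 4 of 45 members in paps1-1, against 1504 of 14190 genes, and 10 of 45 in WT, against 2529 of 14190 genes. Both counts of members are near the share over all genes.

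CAB1 and RCA had lower levels with oligo(dT) in 8 of 8 RNA samples, and no other member did. Among genes with at least 10 counts in a library, 4.16% of 22060 were lower in 8 of 8, so 2 of 48 is near that background. The log2 fold change of oligo(dT) over random hexamers of CAB1 was -8.57 ± 2.66 (SE, edgeR adjusted p = 0.181) in paps1-1 and -7.40 ± 2.23 (edgeR adjusted p = 0.0641) in WT. CAB1 had oligo(dT) counts in 1 RNA sample of each genotype, so these values rest largely on counts of 0. Where counted, it stood at 56.9 CPM against 82.8 with random hexamers (paps1-1 replicate 2) and at 132 against 423 CPM (WT replicate 4). Its group mean was 14.2 against 299 CPM in paps1-1 and 33.0 against 211 CPM in WT. In paps1-1 the edgeR adjusted p of CAB1 was 0.0415 without paps1-1 replicate 2, which left no oligo(dT) count, and 0.0136 without WT replicate 3. In WT it was 0.0344 without paps1-1 replicate 4. Over all alternatives the fitted value ran from -11.7 to -4.34 in paps1-1 and from -10.1 to -3.33 in WT. For RCA the fitted log2 value in paps1-1 was -4.70 with an SE of 2.34 (edgeR adjusted p = 0.440). In WT, RCA had 1 oligo(dT) count and 313 random-hexamer counts, a pooled level 161-fold lower with oligo(dT) (95% exact counting interval 28.7 to 6392, edgeR adjusted p = 0.118). The highest of the 4 WT random-hexamer levels of RCA was that of replicate 3, 124 CPM, where a count of 0 with oligo(dT) allows 42.9 CPM. PSBO2 in paps1-1, with no oligo(dT) count, had a mean at least 8.67-fold lower with oligo(dT) (edgeR adjusted p = 0.487), and CAB2 in WT at least 2.27-fold lower (edgeR adjusted p = 0.189). The bound of PSBO2 rests on paps1-1 replicate 3, without which its random-hexamer mean of 1.76 CPM was under the 2.33 CPM that counts of 0 allow, and that of CAB2 was 1.01-fold without WT replicate 4. DESeq2 called CAB1 (adjusted p = 0.00417), RCA (0.0216) and RBCS3B (0.0447) lower and PSBX (0.0185) higher with oligo(dT) in paps1-1. In WT it called RCA, DRT112, CAB1, CAB3, RBCS1A, PSAD-2, GAPA, PSAE-1, LHCB4.1 and CAB2 lower, with adjusted p between 0.000670 and 0.0493. These were not lower in every WT RNA sample. In WT replicate 4, DRT112, CAB3, RBCS1A, PSAE-1 and LHCB4.1 had higher levels with oligo(dT) than with random hexamers (312 against 129 CPM for DRT112). RCA, CAB1, PSAD-2, GAPA and CAB2 had lower levels there.

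The difference between genotypes in the oligo(dT) to random-hexamer ratio was tested as an interaction, and edgeR called 0 of 45 members and 0.0% of 14190 genes. No member had an unadjusted p below 0.05, against 1.63% of genes, and the DESeq2 Wald test called 0 members and 36 genes. The members' median log2 interaction was 2.62, beside 0.97 over all genes tested, and 29 of 45 were positive, near the 62.9% of all genes tested. This median was 0.72 without the RNA sample as a block, 0.82 without paps1-1 replicate 2, 0.87 without WT replicate 3 and up to 3.43 without both RNA samples of highest sum. For 7 of the 45, a group at 0 makes the fitted value depend on the prior count. The 3 smallest p were those of PSBW (unadjusted p = 0.0703), RBCS1A (log2 interaction 4.48 ± 2.55 (SE), unadjusted p = 0.0786) and CAB3 (5.47 ± 3.14, unadjusted p = 0.0814), each with an edgeR adjusted p of 1.

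The 28 further nuclear photosynthesis genes looked at had their high samples in the same RNAs, while lists of related pathways did so in part. Of the 28, 8 were tested between genotypes with oligo(dT) and 17 with random hexamers, and none was called (median log2 fold change of paps1-1 over WT 1.30, with 7 positive, and 0.94, with 15 positive). Their share of gene counts was 0.0370%, 0.0925%, 0.480% and 0.0582% in paps1-1 oligo(dT) replicates 1 to 4, against 0.0281%, 0.0352%, 0% and 0.172% in WT. With random hexamers it was 0.0311%, 0.0747%, 0.339% and 0.0297% in paps1-1, against 0.0194%, 0.0441%, 0.0493% and 0.119% in WT. Replicate 3 of paps1-1 and replicate 4 of WT were again the highest of their groups in both primings. TKL1, a transketolase of the Calvin-Benson cycle, had the highest level of that list, at 65.6, 247, 1354 and 91.5 CPM in paps1-1 oligo(dT) replicates 1 to 4, against 76.4, 136, 0 and 437 CPM in WT. The 14 chlorophyll synthesis genes and regulators took between 0.0116% and 0.125% in paps1-1, highest in replicate 3, and between 0.00879% and 0.0586% in WT, highest in replicate 3, with oligo(dT). That WT value rests on 41 counts of 1 gene, and replicate 4 was next at 0.0424%. With random hexamers they took between 0.0136% and 0.156% in paps1-1, highest in replicate 3, and between 0.0131% and 0.0442% in WT, highest in replicate 4. CHLH, a subunit of magnesium chelatase, led them with 28.7, 114, 485 and 34.0 CPM in paps1-1 random-hexamer replicates, against 32.4, 43.9, 93.9 and 141 CPM in WT. Of these 14 genes, none was called of 4 tested with oligo(dT) and of 11 tested with random hexamers. The 6 photorespiration genes took between 0.0186% and 0.142% in paps1-1, highest in replicate 3, and between 0.0151% and 0.0629% in WT, highest in replicate 3, with oligo(dT). Here too the WT value rests on 1 gene, with 44 counts, and replicate 4 was next at 0.0426%. With random hexamers they took between 0.0139% and 0.0323% in paps1-1, highest in replicate 3, and between 0.00748% and 0.0333% in WT, highest in replicate 4, with none called.

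**Figure D5:**
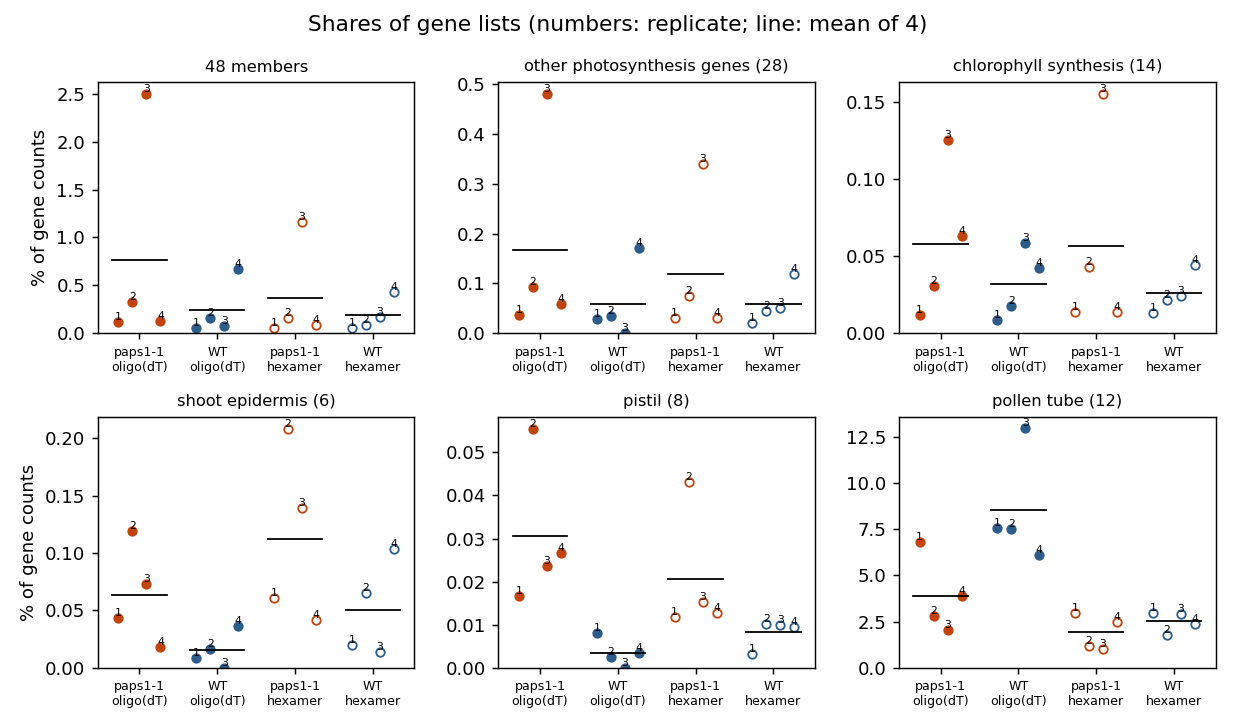
Share of gene counts (y axis, percent) of the 48 members and 5 other gene lists in each library, by group (x axis), with the replicate number at each point and a line at the mean of 4. The members and the other photosynthesis genes have replicate 3 highest in paps1-1 and replicate 4 highest in WT, and the pistil list has replicate 2 highest in paps1-1.

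The summed pistil markers had other high samples than the members, and the summed shoot epidermis markers did so in paps1-1 only. The 8 pistil markers took 0.0168%, 0.0554%, 0.0235% and 0.0267% of gene counts in paps1-1 oligo(dT) replicates 1 to 4, against 0.00804%, 0.00240%, 0% and 0.00338% in WT. With random hexamers they took 0.0118%, 0.0430%, 0.0153% and 0.0126% in paps1-1, against 0.00324%, 0.0102%, 0.00987% and 0.00953% in WT. All 4 paps1-1 libraries were above all 4 WT libraries in each priming, and replicate 2 was the highest, not replicate 3. This held for the sum but not for any single marker, and it was not tested. With random hexamers the nearest libraries of the genotypes stood at 0.0118% and 0.0102%. With oligo(dT), no WT library held more than 1 of the markers, and paps1-1 replicates 3 and 4 held 2 each. STK, an ovule identity gene, led the pistil markers with 57.0, 280.0, 2.81 and 65.7 CPM in paps1-1 random-hexamer replicates, against 8.27, 18.9, 31.8 and 0 CPM in WT. CRC was at 0 in all 16 libraries, HEC1 was found in 1, and between 0 and 7 of the 8 markers were detected per library. The 6 shoot epidermis markers took between 0.0185% and 0.119% in paps1-1 and between 0% and 0.0361% in WT with oligo(dT), and between 0.0416% and 0.208% in paps1-1 and 0.0140% and 0.103% in WT with random hexamers. Replicate 2 was the highest of paps1-1 and replicate 4 that of WT in both primings. LTP1, a lipid transfer protein of the epidermis, led this list with 270.1, 1027, 649.7 and 233 CPM in paps1-1 random-hexamer replicates, against 96.9, 171, 93.9 and 424 CPM in WT. CER1 of the same list, named after its values were seen, had the members' high samples in both primings. With random hexamers it stood at 515 CPM in paps1-1 replicate 3 and 493 CPM in WT replicate 4. None of the pistil or epidermis markers was called between genotypes, and their part in the members' levels was not tested.

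The summed pollen-tube list stood low where the members stood high within paps1-1. Its 12 markers held 6.81%, 2.78%, 2.07% and 3.88% of gene counts in paps1-1 oligo(dT) replicates 1 to 4, against 7.55%, 7.49%, 12.97% and 6.12% in WT. With random hexamers they took 2.97%, 1.20%, 1.03% and 2.50% in paps1-1, against 2.99%, 1.75%, 2.90% and 2.37% in WT. In paps1-1 the lowest share was that of replicate 3 in both primings, and in WT the lowest was replicate 4 with oligo(dT) and replicate 2 with random hexamers. Shares of 1 library sum to a fixed total, so a high share of other genes lowers this one. With oligo(dT) the sum was mostly VGD1, at 58819, 24126, 17517 and 32603 CPM in paps1-1 replicates 1 to 4, and 128232 CPM in WT replicate 3. In paps1-1 oligo(dT) replicate 3, BUPS1 (223 CPM) and MYB120 (no count) were also the lowest of their group. MYB97, named after its values were seen, was the highest of its group there, at 139 CPM. The sum thus does not stand for each marker. None of the 12 was called between genotypes. Between primings, MYB120, a pollen-tube transcription factor, fell with oligo(dT) by 7.32 on the log2 scale in paps1-1 (SE 1.30, edgeR adjusted p = 3.19e-05) and by 7.29 in WT (SE 1.23, edgeR adjusted p = 4.47e-06). In WT, BUPS1, a pollen-tube receptor kinase, fell by 3.89 (SE 0.84, edgeR adjusted p = 0.00193), and VGD1, a pectin methylesterase, rose by 1.38 (SE 0.38, edgeR adjusted p = 0.0377).

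Reads on the opposite strand were counted for 30 of the 48 members, and 7 had over 10% of their reads there. They made up 22.2% of the members' reads on either strand in paps1-1 oligo(dT) replicate 4, beside 19.9% over all genes, and 42.2% in WT oligo(dT) replicate 3, beside 34.0% over all genes. In WT oligo(dT) replicate 1 it was 34.0% for the members and 4.18% over all genes. PSAH-1, a subunit of photosystem I chosen after its values were seen, had 920 opposite-strand counts beside 1250 on its own strand over 16 libraries, and 430 beside 178 in WT oligo(dT) replicate 1. A RefSeq annotation places ROPGEF13, a pollen-expressed activator of ROP GTPases, on the strand opposite PSAH-1, and ROPGEF11 opposite PSAH2, which had 200 opposite-strand counts beside 472. Over the list, 17 members with an overlapping gene on the other strand had 6.43% of reads there (3.76% for the 16 without PSAH-1), and the 31 without one 1.61%. Of those 31, LHCB2.1 (27.2%), PSBO2 (21.4%) and GAPB (21.1%) were above 10%, and the highest share of all was the 66.4% of LHCB2.3, with 75 opposite-strand counts beside 38.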

How the data were processed

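RNA of 8 pollen-tube samples was measured in 16 libraries. The authors deposited read counts per gene for each library, without regard to strand, on the strand of the gene and on the opposite strand. The genome build TAIR10 and the aligner STAR are named in the submitters' processing notes. For its version, the annotation release, trimming and duplicate removal, nothing is given in the sources used here. Gene-strand counts were analysed. The 4 rows for reads without a gene held 55.1% to 99.6% of a library's reads and stayed out of library sizes and tests. Organelle genes were not analysed here. Names and overlapping neighbours came from RefSeq TAIR10.1, which matched 32835 of 33323 identifiers and all 48 members. The overlaps rest on its gene positions and strands. No coordinates are printed, since its build is not that of the counts.

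Tests used edgeR 4.0.16 in R 4.3.3 (quasi-likelihood F test, TMM, filterByExpr with a minimum count of 10 and a minimum total of 15, Benjamini-Hochberg adjustment over all genes tested, threshold 0.05). The genotype comparisons used the 8 libraries of a priming without a block. The priming comparisons and the interaction used all 16 with the RNA sample as a block, since the labels' protocols state that each RNA was split. Standard errors were derived from F, as the fold change on the log2 scale over its square root. Scripts were tested on simulated data. Alternatives were DESeq2 1.42.0 (Wald test and size factors), no filter on low counts, counts without strand, other blocks and leaving out replicates. A bound for a group without counts is set against the CPM of 3 counts in each of its libraries, averaged.

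The members and lists were chosen with earlier results of these data known. Members with values in every library are, for each role, the 2 with the highest mean CPM over random-hexamer libraries, the 3 of smallest p in each of the 5 tests and the 4 RBCS genes, 23 in all. Genes of other lists are named where they passed the threshold or led their list, except MYB97, CER1, CRC and HEC1.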

Additional observations from a re-analysis of the deposited data

Results flagged for a closer look

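In 64 of 120 groups of 4 libraries that were looked at (named members, member sums and list sums), the highest or lowest library lay apart from the other 3 by more than Dixon's 95% limit (its gap to the nearest library over the range of the group). For independent, normally distributed values chance flags about 1 in 20 groups, a rate that does not carry over to these groups, which share RNAs and hold many zeros. In 13 of the 56 cases for single members the other 3 libraries had no count. Of the 56, 31 were in the libraries of paps1-1 replicate 3 and 19 in those of WT replicate 4, the RNAs with the highest member sums.

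As shares of gene counts, the member sum lay apart in paps1-1 oligo(dT) replicate 3 (2.50%), in paps1-1 random-hexamer replicate 3 (1.17%) and in WT oligo(dT) replicate 4 (0.669%). The other photosynthesis genes lay apart in paps1-1 replicate 3 with oligo(dT) (0.480%) and with random hexamers (0.339%), and photorespiration genes in paps1-1 oligo(dT) replicate 3 (0.142%). Pistil markers lay apart in paps1-1 random-hexamer replicate 2 on the high side (0.0430%) and in WT random-hexamer replicate 1 on the low side (0.00324%).

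In paps1-1 oligo(dT) replicate 3, the levels far above the other 3 libraries, in CPM, were those of LHCA1 (1816), LHCA4 (1083), LHCB4.1 (783), RBCS1A (1108.5), RBCS2B (326), RBCS3B (269), RCA (116), PSAF (1291), PSBX (918), FED A (1590.3) and GAPA (184). In WT oligo(dT) replicate 4 they were those of LHCA1 (542), LHCA4 (418), CAB3 (260.4), CAB1 (132), LHCB4.1 (214), RBCS1A (550.2), RBCS1B (20.3), PSBO1 (172), PSBO2 (12.4), DRT112 (312), FED A (125), GAPA (10.1) and PRK (38.3).

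In paps1-1 random-hexamer replicate 3 they were those of LHCA1 (354), CAB2 (117), CAB3 (312), CAB1 (1035), LHB1B2 (657), LHCB4.1 (288), RBCS1A (844), RBCS1B (52.0), RBCS2B (224), RBCS3B (662), RCA (530.2), PSAD-1 (564), PSAF (446), PSBO1 (425), PSBO2 (91.4), PSBR (537), PSBW (94.2), PSBX (83.0), GAPA (207) and PRK (199.7), in CPM. In WT random-hexamer replicate 4 they were those of LHCA1 (79.0), LHCB4.1 (56.3), RBCS1A (349), PSBW (27.7), PSBX (93.4) and PRK (77.1).

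The remaining 6 cases were in other libraries. With oligo(dT) they were CAB2 (10.9 CPM) and CAB1 (56.9 CPM) in paps1-1 replicate 2, RBCS1B (13.8 CPM) in paps1-1 replicate 1, RBCS2B (6.11 CPM) in WT replicate 1 and RCA (1.00 CPM, a single count) in WT replicate 2. With random hexamers it was GAPA (105 CPM) in WT replicate 3.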

How the results depend on the processing

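No member was called between genotypes or in the interaction under any alternative that was run. Between primings the DESeq2 Wald test called 4 of 45 members in paps1-1 and 10 of 45 in WT, where edgeR called 0. Those calls stood beside 1504 and 2529 of 14190 genes. Leaving out single RNA samples in edgeR gave 0 to 1 member in each genotype. The median of the members in the priming comparison of paps1-1, -0.11, changed sign with the DESeq2 Wald test (0.050), DESeq2 size factors (0.051), counts without strand (0.10) and no replicate block (0.32), and ranged between -0.94 and 0.52 when RNA samples were left out (0.27 without WT replicate 2, 0.27 without WT replicate 4, 0.52 without paps1-1 replicate 4). That of WT, -2.89, ranged between -3.57 and -1.22 over left-out RNA samples and was -1.64 with the DESeq2 Wald test and -0.32 with no replicate block, and that of the interaction, 2.62, ranged between 0.82 and 2.72 and was 0.72 with no replicate block. The genotype medians ranged between -0.053 (without paps1-1 replicate 3) and 3.32 with oligo(dT) and between -0.60 (without paps1-1 replicate 3) and 1.81 with random hexamers over left-out replicates, and RBCS3B with random hexamers between -0.32 (without paps1-1 replicate 3) and 2.52. Without both RNA samples of highest sum, an alternative chosen after the data were seen, the medians were 1.14 (20 of 25 positive) with oligo(dT) and 0.41 (24 of 39 positive) with random hexamers. The log2 interaction of RBCS1A was -0.010 without the RNA sample as a block. The cause of these changes was not tested.

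Replicate numbers are shared by the genotypes, and no label tells whether they pair samples. Deviations of same-numbered samples had correlations of -0.07 to 0.22 with oligo(dT) and of -0.07 to 0.30 with random hexamers. Those of differently numbered samples ran from -0.14 to 0.13 with oligo(dT) and from -0.28 to 0.19 with random hexamers. The highest of each priming was that of the samples numbered 1, so these values do not settle whether the numbers pair samples. With the replicate number as a block, 0 members were called, the genes called numbered 4 against 1 without it (oligo(dT)) and 15 against 9 (random hexamers), and the members' medians were 3.09 and 0.48. The priming comparisons without a replicate block called 0 members, with 16 genes against 40 in paps1-1 and 227 against 163 in WT.

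Mean member shares ranged between 0.189% and 0.983% in paps1-1 and 0.0929% and 0.298% in WT with oligo(dT) when 1 replicate was left out, and between 0.0988% and 0.469% in paps1-1 and 0.101% and 0.228% in WT with random hexamers. Counting without strand, leaving out the 50 most abundant genes from the total, or leaving out the RBCS and LHCB1 copies moved each mean by less than 1 SD. That limit could hardly be passed, since the SD exceeded the mean in every group but WT with random hexamers. The highest mean under these alternatives was 0.913% in paps1-1 and 0.337% in WT with oligo(dT). With random hexamers it was 0.438% in paps1-1 and 0.265% in WT.

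Counts of genes called over all genes varied more. With DESeq2 they were 34 and 35 between genotypes (oligo(dT) and random hexamers), 1504 and 2529 between primings (paps1-1 and WT) and 36 for the interaction. Without a filter they were 2 and 47 in the genotype comparisons, and over left-out replicates they ran from 0 to 3, 4 to 11, 16 to 215, 32 to 242 and 0 to 2 in the same order. DESeq2 size factors moved the median of all genes between genotypes to 0.30 with oligo(dT), against 0.43 with TMM, and to 0.21 with random hexamers, against 0.38. Depth limits the oligo(dT) zeros of WT replicate 3 most, where a count of 0 allows 42.9 CPM and 9 of 21 members seen only with random hexamers lay above that level, against 96 of 108 in the other 7 RNA samples. Bounds without the RNA sample of the highest library were also added after the data were seen.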
